A study of Mus musculus with 2 samples.

Results

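Potassium channel genes were examined in medullary thymic epithelial cells (mTEC), the epithelial cells of the thymic medulla that display proteins of peripheral tissues to developing T cells. The members are the protein-coding genes whose symbol is Kcn followed by letters and a closing number and that carry a value in both deposited libraries. They number 92 of 20374 genes, and each takes the value of its RefSeq transcript line with the highest mean. Cells with high surface MHC class II (mTEChi) and with low surface MHC class II (mTEClo) were obtained by flow sorting of thymi pooled from B6 wild-type animals. Each population is represented by a single library, so there is no replicate. The age and number of the mice are not given in the sources used here. Sequencing used paired reads of 100 bases for mTEChi but unpaired reads of 50 bases for mTEClo, so read type and group cannot be told apart. Values are RPKM, read counts divided by transcript length and library depth, which allow levels to be compared between genes.

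Potassium channels are membrane pores that let potassium leave or enter a cell and so set its resting voltage and shape its electrical and secretory activity. Voltage-gated (Kv) channels open on depolarization, inward rectifiers and two-pore-domain channels hold the resting voltage, and a further family opens with internal calcium or sodium. Many pore subunits need accessory subunits that alter their gating or their transport to the surface. Most of these genes are best known from nerve, muscle, kidney, stomach and islet, and proteins of such tissues are among those that mTEC display through the regulator Aire.

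All 92 genes were above 0 in the mTEChi library and 59 were above 0 in the mTEClo library. The median member stood at 0.562 RPKM in mTEChi and 0.333 RPKM in mTEClo, below the medians of all genes of 3.08 and 2.42 RPKM. At 1 RPKM or more there were 29 members in mTEChi and 30 in mTEClo. Of these, 21 reached that level in both libraries, 8 only in mTEChi and 9 only in mTEClo, while 54 reached it in neither. A few genes carried much of the family's signal. Kcnj15 alone made up 24.2% of the summed RPKM of the members in mTEChi and 21.98% in mTEClo, and Kcnip3 made up 13.0% and 15.3%.

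Changes are given as log2((mTEChi + 1)/(1.21 x mTEClo + 1)) of the RPKM values, where the factor 1.21 brings the median ratio of well-expressed genes to 1. Because of the added 1 RPKM, changes of weak genes come out too small. A gene was kept when its mean over the libraries reached 0.5 RPKM, and the threshold was 2-fold, a log2 value of 1 or -1 on this scale. Of the 46 members kept, 10 (21.7%) were at least 2-fold higher in mTEChi, beside 15.7% of all 14814 kept genes. The members at least 2-fold lower numbered 8 (17.4%), beside 9.27% of all kept genes. The median change of the kept members was -0.05, beside 0.03 for all kept genes; without the scaling factor these medians were 0.0883 and 0.25, so the sign of the former rests on the scaling. Passing the filter and the threshold are linked for weak genes: 7 kept members were under 0.5 RPKM in mTEClo and passed through mTEChi alone, and 7 others passed through mTEClo alone. These genes gave 5 of the 10 higher and 6 of the 8 lower members, so the shares above cannot be read as an excess of the family. Among genes at 0.5 RPKM or more in both libraries, 5 of 32 members were higher (15.6%, beside 9.73% of all 13016 such genes) and 2 were lower (6.25%, beside 9.40%), a restriction that itself removes the genes that differ most. The 2 lower members were Kcnq3 and Kcnh8, and the direction of Kcnh8 is uncertain. The value used is that of the copy marked as a duplicate, and the unmarked copy of its line had 0.960 against 0.201 RPKM (0.66). Of the 7 that passed through mTEChi, 3 were listed at 0 in mTEClo (Kcnk16, Kcne2 and Kcnmb3), and any kept gene at 0 there is past 2-fold by construction. Among members above 0 in mTEClo, 7 of 43 (16.3%) were higher, beside 11.4% of all such genes, and 8 (18.6%) were lower, beside 9.74%. With 1 library per group no test was possible, and every difference describes these 2 libraries.

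**Figure D1:**
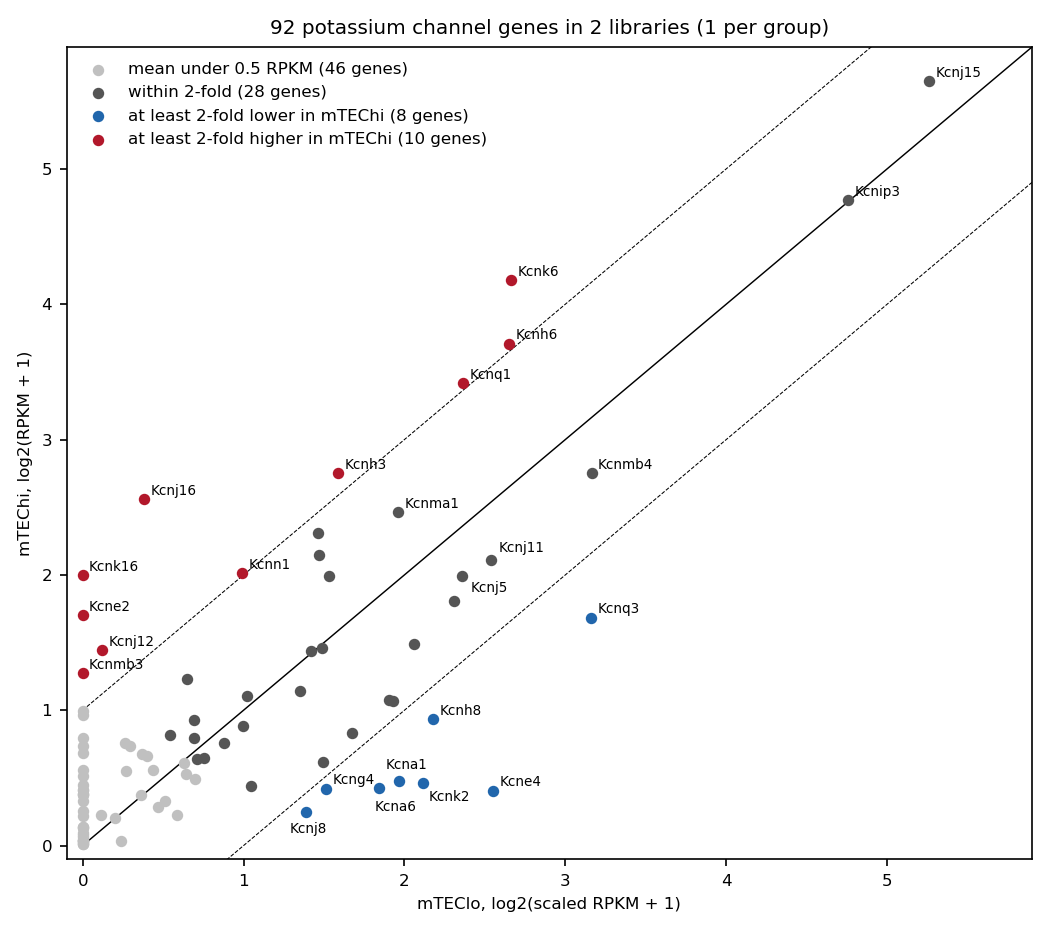
Level of each of the 92 potassium channel genes in mTEClo (x axis, log2 of scaled RPKM plus 1) and in mTEChi (y axis, log2 of RPKM plus 1), 1 point per gene. The solid line marks equal levels and the dashed lines 2-fold. Kcnj15 and Kcnip3 stand apart at the top of both axes, 10 genes lie above the upper dashed line among those kept, and 8 lie below the lower one.

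The values imply about 115000000 reads behind the mTEChi library and 21000000 behind the mTEClo library, a ratio of 5.48. Reads per gene recovered from these depths and from transcript lengths give a 95% counting interval for the log2 ratio without the added 1 RPKM. It covers counting error only and is too narrow where both reads of a pair were counted. Both libraries carried markers of cells other than mTEC and, apart from these, tuft-like and neuroendocrine-like markers, which need not come from outside mTEC. None of the lists was free of signal. Endothelial markers were at least 2-fold lower in mTEChi in 10 of 10 cases (summed level 21.5 against 203 RPKM), and markers of pericytes, fibroblasts and smooth muscle in 7 of 12, with 1 higher (238 against 1078 RPKM). Dendritic cell and macrophage markers were higher in 7 of 8 kept of 9 measured (548 against 142 RPKM; Flt3 and Xcr1 at 0 in mTEClo), B cell markers in 3 of 5 kept of 7 (31.1 against 12.8 RPKM; Cd79a, Ms4a1 and Pax5 at 0 in mTEClo) and thymocyte markers in 2 of 9 kept of 10 (20.4 against 14.8 RPKM). Tuft-like markers were lower in 3 of 8 (282 against 487 RPKM), and neuroendocrine-like markers were higher in 2 and lower in 2 of 7 kept of 8 (219 against 131 RPKM). Of the 10 mTEC markers 6 were higher and 3 lower, with Aire at 122 against 15.9 RPKM and Krt14 at 231 against 566 RPKM. In sorted bulk samples, fewer cells of a type and less RNA per cell cannot be told apart.

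The promoters of 3 members are shown as the reference sequence of the strongest member and of 2 members that differed between the libraries, among the kept members with a single start in the table, chosen after their values were seen. Among the kept members with a single start, Kcnj15 had the highest level, Kcnk16 the highest change and Kcne4 the lowest change. The change of Kcnk16 rests on its listed 0 in mTEClo and on the added 1 RPKM. The sequences are the 250 bases before the start from RefSeq on build GRCm38.p6, a later build than the one the submitters name, written 5′ to 3′ on the strand of the gene, with each CG pair in capitals. Kcnj15 lies on the plus strand (chr16:95257308-95257557), Kcnk16 on the minus strand (chr14:20269270-20269519) and Kcne4 on the plus strand (chr1:78816661-78816910).
Kcnj15: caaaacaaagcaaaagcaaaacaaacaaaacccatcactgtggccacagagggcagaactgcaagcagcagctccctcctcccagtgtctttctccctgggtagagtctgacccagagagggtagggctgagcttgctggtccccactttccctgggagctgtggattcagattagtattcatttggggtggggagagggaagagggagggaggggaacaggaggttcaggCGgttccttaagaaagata
Kcnk16: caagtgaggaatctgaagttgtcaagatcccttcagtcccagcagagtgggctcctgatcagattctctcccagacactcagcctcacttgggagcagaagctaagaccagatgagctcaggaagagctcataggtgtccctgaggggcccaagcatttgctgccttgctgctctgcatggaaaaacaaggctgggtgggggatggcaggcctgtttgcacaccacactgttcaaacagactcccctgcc
Kcne4: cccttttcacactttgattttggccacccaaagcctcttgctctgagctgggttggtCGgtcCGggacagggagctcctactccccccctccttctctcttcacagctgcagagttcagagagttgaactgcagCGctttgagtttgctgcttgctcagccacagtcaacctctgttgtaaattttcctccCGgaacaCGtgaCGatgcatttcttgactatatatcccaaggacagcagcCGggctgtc

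The CG pair reads the same on both strands. Kcnj15 holds 1 pair and Kcnk16 holds 0, and 18.8% and 7.87% of all 32851 promoters in the table hold as few or fewer. Kcne4 holds 7 pairs, a count that 57.0% of promoters reach or stay under. The 52 members with a single start had a median of 10 pairs, beside a median of 6 over all promoters. The latter belong to 27025 genes and include genes with several starts, so the 2 sets are not matched. By change, the medians were 5 for 4 higher members, 7 for 5 lower members, 14 for 19 members within 2-fold and 13 for 24 members under the filter. These are descriptions of the reference sequence, with few genes in the first 2 groups.

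Inward rectifiers, which pass potassium more easily into the cell than out, were the class with the largest summed level in both libraries, 73.4 RPKM in mTEChi and 44.7 RPKM in mTEClo (54.1 RPKM after scaling). Of 15 members, 10 were kept, with 2 higher, 1 lower and a median change of 0.25. Kcnj15, an inward rectifier of kidney and other epithelia, was listed at 49.2 RPKM in mTEChi and 30.8 RPKM in mTEClo. It ranked first among the members in both libraries and lay above 94.3% of all genes in mTEChi and 92.6% in mTEClo. Its change was 0.39, within 2-fold, and the counting interval of its log2 ratio ran from 0.35 to 0.45. All 11 of its coding transcript lines gave values close to one another, from 47.6 to 49.2 RPKM in mTEChi and from 29.97 to 30.8 RPKM in mTEClo.

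Kcnj16, a subunit that pairs with Kcnj10 or Kcnj15 in kidney tubule and glia, had 4.89 RPKM in mTEChi and 0.251 RPKM in mTEClo. This change of 2.17 was the highest among the kept members, and its 5 transcript lines all lay between 2.16 and 2.17. About 307 reads were expected in the mTEClo library from the mTEChi value and 19.1 were recovered. The counting interval of its log2 ratio (4.01 without the added 1 RPKM) is therefore wide, from 3.37 to 4.75. Its partner Kcnj15 was the strongest member in both libraries, whereas Kcnj10 had 0.301 RPKM in mTEChi and was listed at 0 in mTEClo. The second higher member was Kcnj12, a strong inward rectifier of heart and skeletal muscle, with 1.72 against 0.0728 RPKM (1.32). Only 3.76 reads were recovered for it in mTEClo, and the counting interval of its log2 ratio ran from 2.83 to 6.08. Kcnj2, a related strong rectifier, had 3.43 against 1.46 RPKM (0.68) and stayed within 2-fold.

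G-protein-gated rectifiers slow the heart and quiet neurons when a receptor releases the G-protein subunits. Kcnj3 had 3.96 against 1.45 RPKM (0.85, and 1.01 without scaling, past 2-fold), and Kcnj5, which joins it in atrial muscle, had 2.98 against 3.41 RPKM (-0.36). In the annotation Kcnj3 shares 1621 exon bases with Gm26794 on the opposite strand. Reads of that pair cannot be told apart there, since the libraries do not keep strand. The neuronal members were weaker, with Kcnj6 at 0.736 against 0.508 RPKM and Kcnj9 at 0.293 RPKM against a listed 0. The other transcript lines of Kcnj6 lay lower in mTEClo, from 0.0921 to 0.164 RPKM. ATP-sensitive rectifiers couple metabolism to voltage. Kcnj11, the pore of the channel in pancreatic beta cells, had 3.32 against 3.97 RPKM (-0.43). Abcc8, the sulfonylurea receptor that completes that channel, had 5.49 against 0.512 RPKM (2.00), so the receptor was past 2-fold and the pore was not. Kcnj8, the pore in vascular muscle and pericytes, had 0.187 against 1.33 RPKM (-1.14), with 8.27 reads expected and 71.4 recovered in mTEClo. Its receptor Abcc9 had 0.299 against 1.22 RPKM (-0.93). The -1.14 of Kcnj8 was -0.98 without scaling, within 2-fold. Of the 12 pericyte, fibroblast and smooth muscle markers, which include Abcc9, the 7 that were lower were Pdgfra, Acta2, Tagln, Dcn, Col1a1, Col3a1 and Postn. The pericyte markers Pdgfrb (4.03 against 3.98 RPKM) and Cspg4 (1.40 against 1.38 RPKM) were within 2-fold, as was Myh11 of smooth muscle (13.4 against 15.7 RPKM), and the pericyte marker Rgs5 was higher (126 against 49.1 RPKM). The part of these cells in the Kcnj8 value was not tested.

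Kcnj13, a rectifier of retinal pigment epithelium and choroid plexus, had 1.71 against 1.38 RPKM (0.02). In the annotation it shares 623 exon bases with Gigyf2 on the opposite strand, and the libraries do not keep strand, so reads of the 2 genes cannot be told apart. The remaining rectifiers Kcnj1, Kcnj4, Kcnj9, Kcnj10 and Kcnj14 did not pass the filter. They lay between 0.0462 and 0.329 RPKM in mTEChi, and all 5 were listed at 0 in mTEClo.

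**Figure D2:**
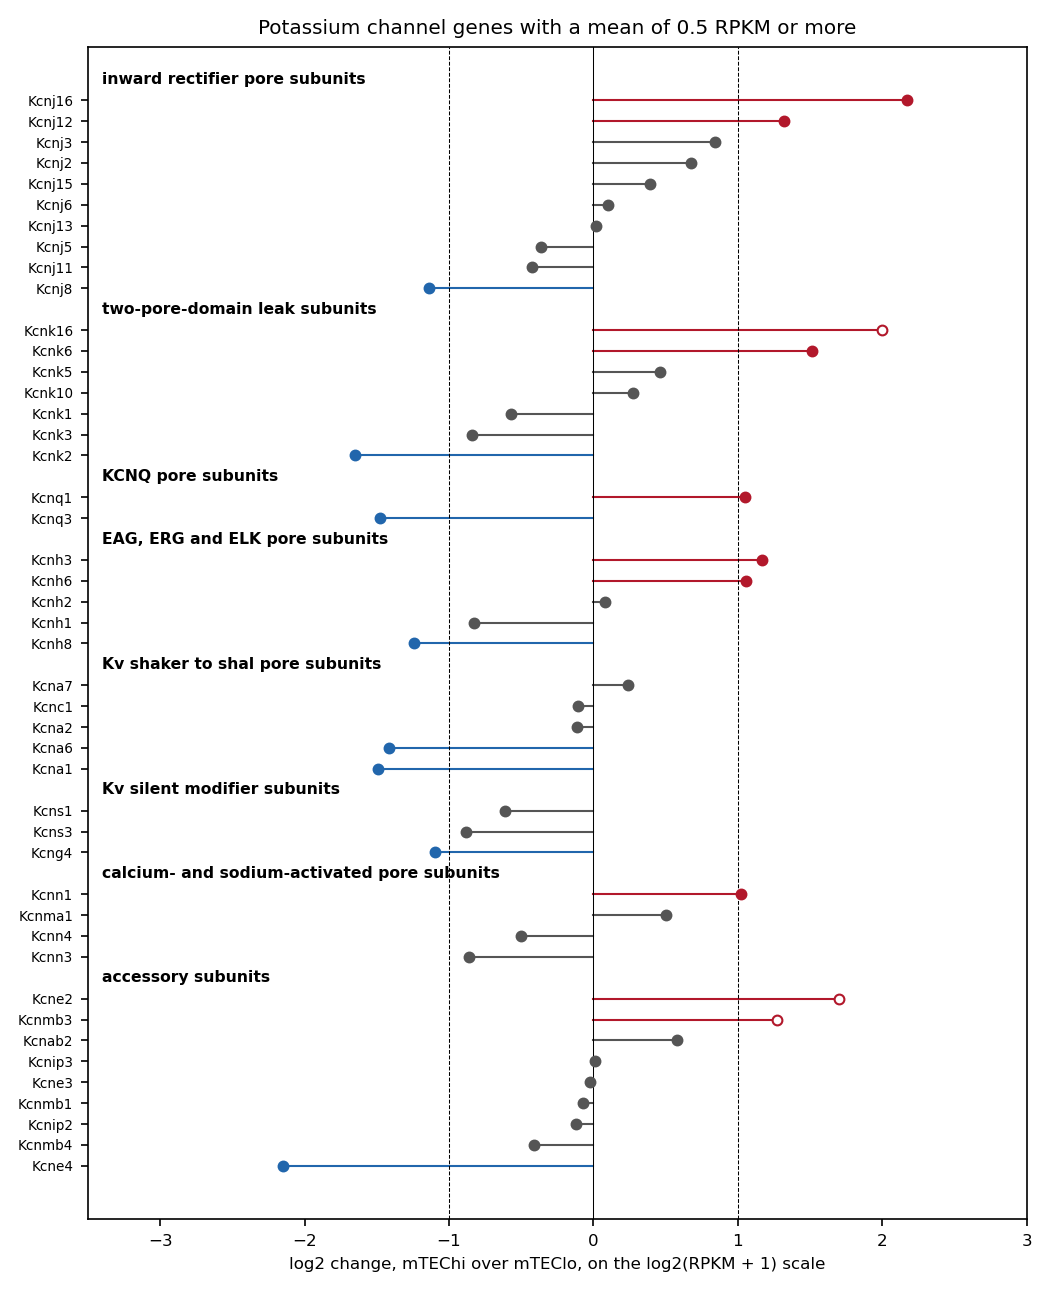
Log2 change between mTEChi and mTEClo on the log2(RPKM + 1) scale for the kept potassium channel genes reported here, grouped by class and ordered by change within each class. Red points are at least 2-fold higher in mTEChi, blue points at least 2-fold lower, and open points were listed at 0 in mTEClo. The changes run from -2.15 for Kcne4 to 2.17 for Kcnj16, and genes past 2-fold in both directions occur in 5 of the 8 classes. The positions of the open points depend on the added 1 RPKM.

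Two-pore-domain channels carry the background leak of potassium and respond to acid, stretch or lipids. Their summed level was 28.5 RPKM in mTEChi and 13.5 RPKM in mTEClo, and Kcnk6 made up most of the former. Of 14 members 7 were kept, with 2 higher, 1 lower and a median change of 0.27, which was -0.15 when genes at 0 in mTEClo were left out. Kcnk6 (TWIK-2), a leak channel found in many epithelia and in macrophages, had 17.1 against 4.40 RPKM, a change of 1.52. Without the added 1 RPKM its log2 ratio was 1.68, with a counting interval from 1.54 to 1.84. It was the third strongest member in mTEChi and the fifth in mTEClo. Dendritic cell and macrophage markers moved in the same direction (7 of 8 kept members higher), and their part in the Kcnk6 value was not tested. Kcnk16 (TALK-1), a leak channel of pancreatic islets, had 3.002 RPKM in mTEChi and was listed at 0 in mTEClo, where 47.7 reads were expected.

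Kcnk2 (TREK-1), a stretch- and lipid-sensitive channel, went the other way with 0.381 against 2.75 RPKM (-1.65), and both of its transcript lines lay between -1.65 and -1.61. In the annotation it shares 604 exon bases with A430027H14Rik on the opposite strand, so reads of the pair cannot be told apart. Its relative Kcnk10 (TREK-2) had 0.760 against 0.378 RPKM (0.27). Kcnk3 (TASK-1), an acid-sensitive leak channel, had 0.777 against 1.81 RPKM (-0.84) and Kcnk1 (TWIK-1) had 1.81 against 2.62 RPKM (-0.57). Kcnk5 (TASK-2), an alkali-activated channel of kidney, had 2.98 against 1.57 RPKM (0.46). Of these 5 genes, Kcnk2 alone was past 2-fold on this scale. Without the added 1 RPKM, the counting interval of the Kcnk3 ratio ran from -1.78 to -1.20, past 2-fold as well. The others of the class (Kcnk4, Kcnk7, Kcnk9, Kcnk12, Kcnk13, Kcnk15 and Kcnk18) were under the filter, between 0.0223 and 0.733 RPKM in mTEChi, and all 7 were listed at 0 in mTEClo.

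**Figure D3:**
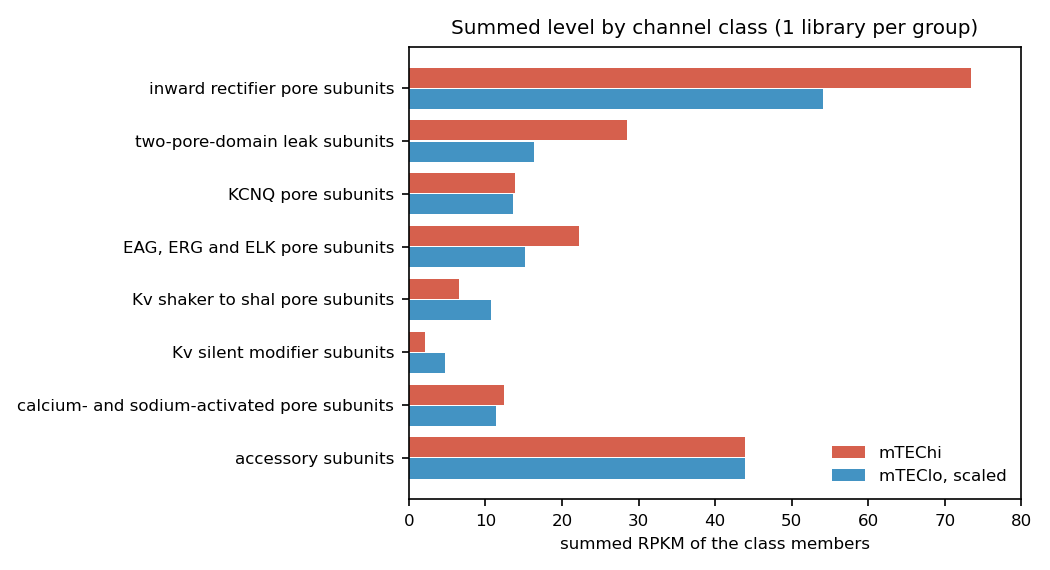
Summed RPKM of the members of each class in mTEChi and, after scaling by 1.21, in mTEClo (bars, 1 library each, no error can be given). The inward rectifiers are the largest class in both libraries (73.4 and 54.1 RPKM), the two-pore-domain class differs by 0.80 on the log2 scale, and the accessory class by 0.00. In the two-pore-domain class, Kcnk6 alone gives 17.1 of 28.5 RPKM in mTEChi and 5.33 of 16.4 scaled RPKM in mTEClo. The median change of the kept genes of that class was 0.27.

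KCNQ channels include the slow cardiac and epithelial channel and the neuronal M-channel. Kcnq1, which serves heart muscle and the acid- and fluid-secreting epithelia of stomach, gut and ear, had 9.68 against 3.43 RPKM (1.05, counting interval of the ratio 1.02 to 1.43). Kcnq3, a subunit of the M-channel of neurons, had 2.21 against 6.55 RPKM (-1.47, interval -1.93 to -1.75). It was the fourth strongest member in mTEClo. Kcnq5 had 0.194 RPKM in mTEChi and was listed at 0 in mTEClo. The class thus held 1 higher and 1 lower gene among 3 kept of 5, with sums of 13.9 and 11.3 RPKM.

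The accessory subunits of the KCNE family, single-span proteins that tune Kcnq1 and other pores, also differed from one another. Kcne2, which joins Kcnq1 in acid-secreting gastric cells, had 2.26 RPKM in mTEChi and was listed at 0 in mTEClo, where 66.2 reads were expected. Of the gastric proton-potassium pump that works beside that channel, Atp4a had 20.2 against 1.89 RPKM (2.69) and Atp4b 3.85 against 0.830 RPKM (1.28). They were the 2 genes at least 2-fold higher among 14 kept pumps and cotransporters, while Kcne2 is past 2-fold by construction. Kcne3, the partner of Kcnq1 in intestine, had 1.75 against 1.49 RPKM (-0.03). Kcne4, a subunit that inhibits Kcnq1 in model cells, had 0.325 against 4.02 RPKM. Its change of -2.15 was the lowest among kept members, with 15.0 reads expected and 224 recovered in mTEClo. Kcne1, the cardiac and inner ear partner, had 0.475 RPKM in mTEChi and was listed at 0 in mTEClo.

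Channels of the EAG, ERG and ELK groups, which shape repolarization in heart and neurons, had 5 of 8 members kept, 2 higher and 1 lower, with a median of 0.08. Kcnh6, of the ERG group, had 12.1 against 4.36 RPKM (1.06, counting interval of the ratio 1.03 to 1.37) and was the fourth strongest member in mTEChi. Kcnh3, a forebrain ELK channel, had 5.74 against 1.66 RPKM (1.17, interval 1.26 to 1.78). Kcnh2, the ERG channel of cardiac repolarization, had 1.15 against 0.850 RPKM (0.08), and Kcnh1, of the EAG group, had 1.11 against 2.27 RPKM (-0.83). Without the added 1 RPKM, the counting interval of the Kcnh1 ratio ran from -1.49 to -1.12, past 2-fold. Kcnh8, another ELK channel, had 0.915 against 2.91 RPKM (-1.24) on the line used. That line is the copy marked as a duplicate in the files. The unmarked copy had 0.960 against 0.201 RPKM, a change of 0.66 in the opposite direction. The direction of Kcnh8 is therefore uncertain, and 7 members were at least 2-fold lower when the other copy was used. Kcnh4, Kcnh5 and Kcnh7 were under the filter, at most 0.695 RPKM in mTEChi and 0.290 RPKM in mTEClo. Kcnh7 shares 696 exon bases with Gca on the opposite strand.

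The Kv subfamilies of the shaker to shal type, which repolarize axons and muscle after each impulse, were weak in both libraries, with sums of 6.54 RPKM in mTEChi and 8.81 RPKM in mTEClo over 17 members. No member reached 1 RPKM in mTEChi and 2 did so in mTEClo. These were Kcna1, the axonal channel mutated in episodic ataxia, with 0.388 against 2.40 RPKM (-1.49), and Kcna6 with 0.342 against 2.13 RPKM (-1.42). Kcna1 had 27.2 reads expected and 203 recovered in mTEClo, and Kcna6 had 34.6 expected and 261 recovered. Both values were lower in mTEChi, but both genes passed the filter through mTEClo alone, so their direction is linked to the filter. Kcna6 also shares 2355 exon bases with an opposite-strand transcript in the annotation, and reads of that pair cannot be told apart there. The other 3 kept members lay within 2-fold, with Kcna2 at -0.12, Kcnc1 at -0.11 and Kcna7, known from muscle, at 0.24. The remaining 12 members, among them Kcna3 of lymphocytes (0.150 against 0.122 RPKM), were under the filter.

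Silent subunits form no channel alone and modify Kv channels of the Kcnb type. None of the 10 reached 1 RPKM in mTEChi, and 2 did in mTEClo. Kcng4 had 0.339 against 1.53 RPKM (-1.09) and was past 2-fold, but not without scaling (-0.92) or with matched upper quartiles (-0.86). Kcns3 had 0.531 against 1.501 RPKM (-0.88) and Kcns1 0.353 against 0.882 RPKM (-0.61), both within it on this scale. Without the added 1 RPKM, the counting intervals of their ratios ran from -2.20 to -1.36 and from -2.09 to -1.08, past 2-fold. The 3 kept members of this class had lower values in mTEChi, with a median change of -0.88 that was 0.03 over all 10 without the filter. Of these, 2 (Kcng4 and Kcns1) passed the filter through mTEClo alone, so their direction is linked to the filter. Among their pore partners, Kcnb2 was weak at 0.220 against 0.316 RPKM. The other 7 silent subunits were at most 0.426 RPKM in mTEChi and were all listed at 0 in mTEClo.

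Calcium- and sodium-activated channels link internal ions to voltage. Kcnma1, the large-conductance channel of smooth muscle, neurons and secretory epithelia, had 4.53 against 2.39 RPKM (0.50), and its 22 lines lay between 0.27 and 0.57. It shares 1016 exon bases with 4930519K11Rik on the opposite strand, so reads of the pair cannot be told apart there. Kcnn1, a small-conductance channel of neurons, had 3.04 against 0.817 RPKM (1.02, counting interval of the ratio 1.28 to 2.00). Its relative Kcnn3 had 1.10 against 2.32 RPKM (-0.86) and stayed within 2-fold on this scale, while the counting interval of its ratio ran from -1.64 to -1.06. Kcnn4, the intermediate-conductance channel of lymphocytes, red cells and secretory epithelia, had 2.50 against 3.26 RPKM (-0.50). Of the 4 kept members, Kcnn1 was past 2-fold on the log2(RPKM + 1) scale, and Kcnn2, Kcnt1, Kcnt2 and Kcnu1 were under the filter.

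The remaining accessory subunits were led by Kcnip3, a calcium-binding protein known both as a partner of Kcnd channels and as the transcriptional repressor DREAM. It had 26.3 RPKM in mTEChi and 21.5 RPKM in mTEClo, a change of 0.01 with a counting interval of the ratio from -0.07 to 0.10, and it was the second strongest member in both libraries. The Kcnd pores it is named for were weak, with Kcnd1 at 0.169 against 0.416 RPKM, Kcnd2 at 0.0249 RPKM against a listed 0 and Kcnd3 at 0.295 against 0.234 RPKM. The membrane partners of the same pores lay past 2-fold in opposite directions, with Dpp6 at 2.11 against 11.3 RPKM (-2.24) and Dpp10 at 10.1 against 2.64 RPKM (1.40). Kcnip2, of heart, had 0.688 against 0.694 RPKM, while Kcnip1 and Kcnip4 were under the filter.

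Subunits that tune the large-conductance channel were uneven as well. Kcnmb4, the neuronal type, had 5.73 against 6.57 RPKM (-0.41) and was the third strongest member in mTEClo. However, it shares 355 and 693 exon bases with the opposite-strand transcripts Kcnmb4os1 and Kcnmb4os2, beside a transcript length of 1367 bases. Kcnmb1, the smooth muscle type, had 0.559 against 0.526 RPKM (-0.07). Kcnmb3 had 1.42 RPKM in mTEChi and was listed at 0 in mTEClo, with 42.1 reads expected there, and Kcnmb2 had 0.993 RPKM against a listed 0 and just missed the filter. Lrrc26, a further partner of this channel in secretory epithelia, had 7.73 against 2.26 RPKM (1.23). Among the cytoplasmic beta subunits of Kv channels, Kcnab2 had 1.35 against 0.470 RPKM (0.58), and Kcnab1 and Kcnab3 were under the filter. Over the 15 accessory genes 9 were kept, with 2 higher, 1 lower and a median of -0.03, which was 0.15 without scaling.

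Other genes of potassium transport were taken from lists outside the Kcn symbols. For comparison, 15.7% of all kept genes were higher and 9.27% lower. Of 10 partner subunits, 6 were kept, 4 were at least 2-fold higher (Abcc8, Dpp10, Lrrc26 and Kcnrg) and 1 lower (Dpp6). Kcnrg (1.69 against 0.266 RPKM) passed the filter through mTEChi alone. Among potassium pumps and cotransporters 14 of 15 measured genes were kept, with 2 higher (Atp4a and Atp4b) and 1 lower, the potassium-chloride cotransporter Slc12a4 (2.84 against 11.9 RPKM, -2.01). Of 9 further potassium-permeable cation channels 8 were kept and 0 were past 2-fold in either direction.

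Other channel families gave different counts under the same rule, and these differences could not be tested. Voltage-gated calcium channel subunits had 1 of 14 kept genes higher and 0 lower, and voltage-gated sodium channel subunits 0 of 8 higher and 2 lower. TRP cation channels had 1 of 11 higher and 2 lower. Ionotropic and GABA neurotransmitter receptors had 9 of 23 higher and 0 lower, with a median change of 0.47 beside -0.05 for the potassium channel genes. Over all kept genes, 15.7% were higher and 9.27% lower. The 1 higher calcium channel gene and 3 of the 9 receptors were listed at 0 in mTEClo, past 2-fold by construction. Above 0 there, 0 of 13 calcium channel genes and 6 of 20 receptors were higher, beside 11.4% of all such genes.

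The 33 members listed at 0 in mTEClo were set beside all genes with as many reads expected there. With fewer than 3 reads expected, 10 of 11 members (90.9%) were at 0, beside 96.1% of all genes. With 3 to 20 expected, 11 of 19 members (57.9%) were at 0, beside 65.6%. With 20 to 200 reads expected in mTEClo, 12 of 49 members (24.5%) were listed at 0, beside 16.9%. The members' share was thus above that of all genes in this range and below it in the other ranges. With 200 or more expected, 0 of 13 members were at 0, beside 0.654% of all genes. A value of 0 in this library can be a failed estimate, since the ribosomal protein gene Rps21 was listed at 144 RPKM in mTEChi and at 0 in mTEClo. For this reason the text gives no change for single members listed at 0, although 3 of them count among the 10 higher members.

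**Figure D4:**
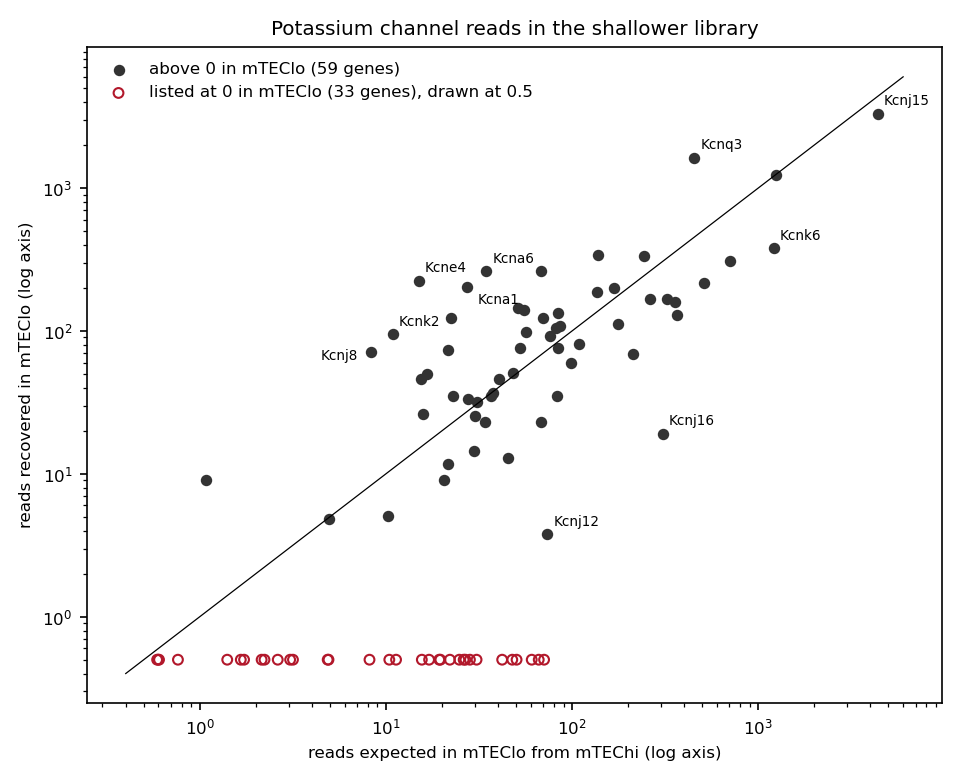
Reads recovered in mTEClo (y axis, log scale) against reads expected there from the mTEChi value, the depths and the scaling (x axis, log scale), 1 point per potassium channel gene. The line marks equality, and the 33 open points were listed at 0 and are drawn at 0.5. Kcnj16 and Kcnj12 lie far below the line, Kcne4, Kcnk2, Kcnj8, Kcna1 and Kcna6 lie above it, and the open points reach up to 70.7 expected reads.

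Several members have more than 1 coding transcript line, 25 of 92 in all and 16 of the 46 kept. Lines of most of these genes gave nearly the same change, since they share exons and hence reads. The largest spreads were those of Kcnh8, described above, and of genes with a short line. The lines of Kcnip2 ran from -0.12 to 0.84 and those of Kcne3 from -0.06 to 0.56. Smaller spreads among kept genes were those of Kcnj6 (0.10 to 0.52), Kcnc1 (-0.43 to -0.11) and Kcnma1 (0.27 to 0.57).

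**Figure D5:**
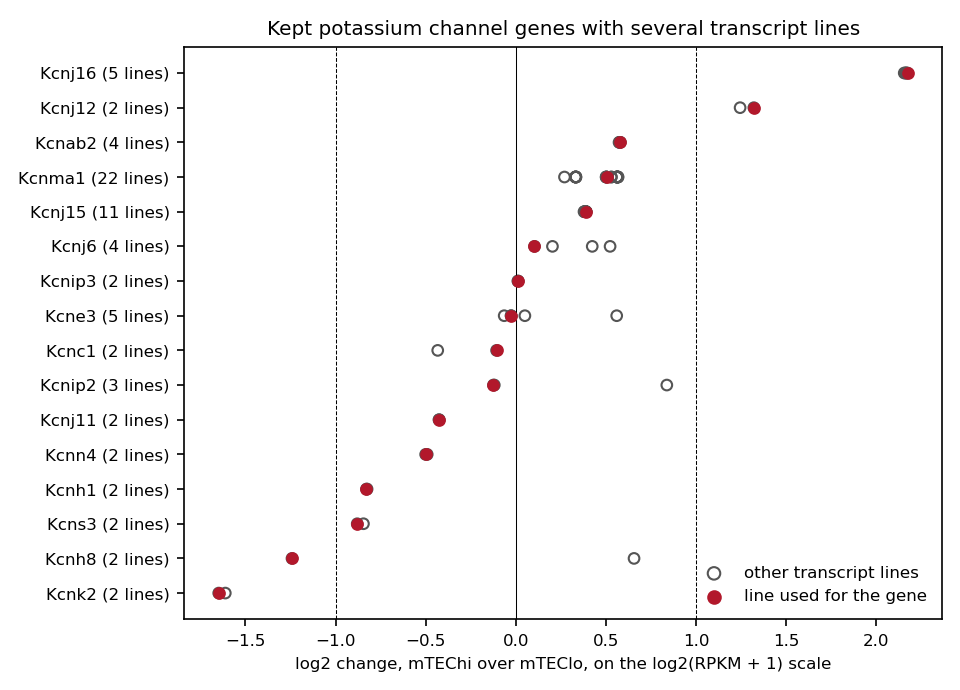
Log2 change on the log2(RPKM + 1) scale of every coding transcript line of the 16 kept potassium channel genes with several lines. Filled points are the lines used for the gene and open points the other lines. The lines of Kcnj15 and Kcnj16 fall almost on one another, whereas the 2 copies of the Kcnh8 line lie on opposite sides of 0.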

How the data were processed

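Each of the 2 files holds RPKM values per RefSeq transcript line as deposited by the authors, 30794 lines in all. Per the submitters' processing notes, bedtools, CASAVA and Bowtie 1.0.0 were used with build mm9, in roles that the notes leave unstated. The treatment of reads shared by transcripts is not stated in these sources. Per the labels' protocols, poly(A) RNA went into an unstranded kit. Accessions were named through a RefSeq table (30216 lines) and GENCODE M21 metadata (180 lines), and 398 lines stayed unnamed and unused. Only NM_ lines entered gene values, the filter and the scaling, which used 5061 genes averaging at least 10 RPKM. Depth was recovered as the step of 1 read in RPKM times transcript length. Among transcripts with 1 to 10 reads, 76.1% of 1454 in mTEChi and 66.1% of 988 in mTEClo were whole to within 0.1 read. GENCODE supplied the lengths, and the authors' lengths may differ. Counting intervals are exact binomial (Clopper-Pearson, 95%). Exon overlaps and promoter sequences come from GRCm38 annotation, a later build than the authors', and 67 of 92 members had a promoter in the RefSeq table. The calling procedure was tested on simulated data. Members, lists and processing were chosen with earlier results of these data known. Values are given for each member at 1 RPKM or more in either library or past 2-fold among those kept, except that some results are not reported here, and other members and list genes are named where they complete a channel, at choices made after values were seen. Cd68 of the lists was not analysed here, and Kcne5 is listed under an older symbol outside the pattern. Alternatives were other pseudocounts, scalings, filters, transcript line choices and leaving out genes at 0. The software was Python 3.11.15 with scipy 1.17.1, pandas 2.3.3, numpy 2.4.6 and, for plots, matplotlib 3.10.9.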

Additional observations from a re-analysis of the deposited data

Results flagged for a closer look

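Non-coding lines with Kcn symbols were outside the comparisons, and those above the level that 3 reads would give are listed here. Kcnj15 has a non-coding line at 45.6 RPKM in mTEChi and 28.7 RPKM in mTEClo, close to its coding lines. Kcnmb4os1, antisense to Kcnmb4, had 3.48 RPKM in mTEChi and 5.97 RPKM in mTEClo. Kcnq1ot1, the long imprinted antisense RNA at Kcnq1, had 0.116 RPKM in mTEChi and 0.161 RPKM in mTEClo. Kcnd3os had 0.0320 RPKM in mTEChi and was listed at 0 in mTEClo. Reads of Kcnq1, Kcnmb4 and Kcnd3 cannot be told apart from those of the antisense lines where exons overlap.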

How the results depend on the processing

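With a pseudocount of 5 RPKM, 1 potassium channel gene (Kcnk6) was at least 2-fold higher and 0 were lower, beside 842 and 627 of all genes; with 0.1 RPKM, 12 were higher and 13 lower. Matching the upper quartiles of the libraries, 5 members were lower and 11 higher, and 850 of all genes were lower. No scaling gave 11 higher and 6 lower, which moves the share of higher genes among those past 2-fold from 55.6% to 64.7% (68.8% with the same upper quartile), and from 62.9% to 74.8% and 78.1% over all genes. The median change of the members was 0.0883 without scaling, 0.14 with the same upper quartile, 0.0878 without the filter and 0.15 with lines summed. Over all genes it was 0.25 without scaling, 0.33 with the same upper quartile and 0.15 with the same sum. At 0.5 RPKM or more 49 members were listed in mTEChi. The copy of the Kcnh8 line not used, an alternative chosen after seeing the data, gave 0.66. Of the 18 members past 2-fold, Kcnk6 alone stayed past it under all 10 alternatives of pseudocount, scaling, filter and line choice. Another 14 left it with a pseudocount of 5 RPKM alone. Kcng4 and Kcnj8 also left it without scaling and with matched upper quartiles, and Kcnh8 with matched upper quartiles and with lines summed or averaged. Of the 28 members within 2-fold, 7 went past it in some setting: Kcnj3, Kcns3, Kcns1, Kcnab2, Kcnh1, Kcnk3 and Kcnn3 with 0.1 RPKM, Kcnj3 also without scaling and with matched upper quartiles, and Kcns3 with lines summed. Leaving out genes at 0 in mTEClo removes Kcnmb3, Kcnk16 and Kcne2 and gives a share of higher genes of 46.7% (53.9% over all genes). Medians of classes near 0 changed sign with the scaling (shaker-to-shal Kv genes with matched upper quartiles, accessory subunits also without scaling). No paired analysis was possible because each group has 1 library. Genes with few reads in mTEClo have wide counting intervals.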

Other observations

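Kcne1l, the older symbol under which the files' accession for Kcne5 is named, had 6.85 RPKM in mTEChi and 1.09 RPKM in mTEClo (log2 change 1.76). It lies outside the symbol pattern and would stand among the stronger accessory subunits in mTEChi. Among the KCNE genes, accessory subunits of Kcnq1 and other pores, the strongest in mTEChi was Kcne1l and in mTEClo it was Kcne4 (0.325 against 4.02 RPKM), so the leading KCNE gene was not the same in the 2 libraries.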
